A study of Mus musculus with 20 samples.

Results

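Of the 12701 genes counted in the proximal colon (PC) of mice fed resistant potato starch (RPS), 161 genes of solute carriers, picked by symbol, are described here. The mitochondrial Slc25 family is not among them. They were taken as the protein-coding genes whose GENCODE symbol is Slc, a family number, the letter a and a member number, without the Slc25 family (38 genes of the table) and without Slc15a1, Slc16a1, Slc5a8, Slc26a3 and Slc9a3. The 161 carriers belong to 46 families. A further 126 carriers that fit this rule in GENCODE are not in the count table and were not analysed here. C57BL/6 mice, an inbred strain with no engineered allele named in the labels, were placed at weaning (3 weeks of age) on the Total Western Diet (TWD), a feed formulated after what people in the United States eat. After 6 weeks on the TWD they ate it with 0, 2, 5 or 10% RPS, a raw starch that reaches the cecum and colon mostly undigested, for 3 more weeks. Each diet had 5 libraries, so the 0% RPS mice are the controls for the other 3 diets and all 20 mice shared the TWD background. The RNA came from a whole segment of PC wall, in which fewer cells of a type and less RNA per cell cannot be told apart.

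Solute carriers are membrane proteins that move ions, nutrients, vitamins, metals and metabolites across the cell surface or across organelle membranes. Some let their substrate flow down its own gradient, others exchange one solute for another, and others couple uptake to the gradient of sodium, protons or chloride. In the large intestine they take up salts, the products of bacterial fermentation, bacterial vitamins, amino acids and metals, and release bicarbonate and other solutes, while organelle carriers supply the Golgi apparatus with the sugar nucleotides needed to build mucins. The carriers were grouped into 13 classes by the substrate of their family or member, as textbooks give it. The question put to each class was whether the RNA of its carriers changed with the level of RPS.

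Libraries held 20581013 to 35083751 counts. A mean of at least 100 normalised counts (raw counts divided by the DESeq2 size factor of the library) was found for all 161 carriers, 80 of them had 1000 or more, and none was at or under 3 raw counts in any library. With all libraries each of the 161 entered every test. The segment carried its defining epithelial RNA, with all 12 colonocyte markers in the table and none at 0. Their sum ran from 657316 to 839712 normalised counts in 4 of the 0% RPS libraries and from 751234 to 1007530 on 10% RPS. At 10% RPS 3 of the 12 (Ceacam1, Epcam and Krt20) had a DESeq2 adjusted p of 0.05 or less (4.69% of all genes). Of these Ceacam1 was called higher at 1.5-fold (0.536%). The linear trend rose for 3, Car4, Ceacam1 and Epcam (4.29% called in either direction). The part of this in the carrier values was not tested. The second library of the 0% RPS diet (replicate 2) stood apart. Its summed colonocyte markers came to 495258 normalised counts against 657316 to 1007530 in the other 19 libraries. Its smooth muscle markers came to 335902 against 144810 to 297349, and its 6 immune markers in the table to 22374 against 5560 to 10994. Its goblet and endocrine markers, at 741183, lay inside the 401485 to 988860 of the other libraries, above the 420071 to 549617 of the other 0% RPS libraries. Its neuron and glia markers (8509, others 6055 to 10045) also lay inside, as did its fat, pancreas and liver markers (7187, others 2051 to 13384). Replicate 2 was the highest or lowest of all 20 libraries for 60 of the 161 carriers (21 highest, 39 lowest), where the other libraries were extreme for 2 to 33. Values of named carriers compared with 0% RPS are therefore also given without it where the call or the direction changed or the size moved by over 1.5 times.

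The Slc25 family and the carriers left out by name were not ranked here. Of the carriers ranked, the most abundant RNA in the PC belonged to Slc44a4, which takes up the thiamine pyrophosphate that gut bacteria make. Its level, as mean normalised count per kilobase of transcript, was 7397 ± 833 (SD, n = 20). Slc6a14, a sodium- and chloride-coupled carrier of neutral and basic amino acids, followed at 4761 ± 1088 per kilobase, then Slc39a4, the apical zinc importer, at 3754 ± 648, Slc17a4, an apical carrier of organic anions, at 3296 ± 669, and Slc10a2, the apical bile acid carrier best known from the ileum, at 2613 ± 780. The step from Slc44a4 to Slc6a14 was larger than the SD of either, and each of the other steps was smaller than the larger SD of its pair. A small set made up much of the total, since 18 carriers supplied 50% of the summed level per kilobase and the first 10 supplied 35.2%. The median carrier stood at 276 per kilobase, and the range ran from 32 to 7397.

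**Figure D1:**
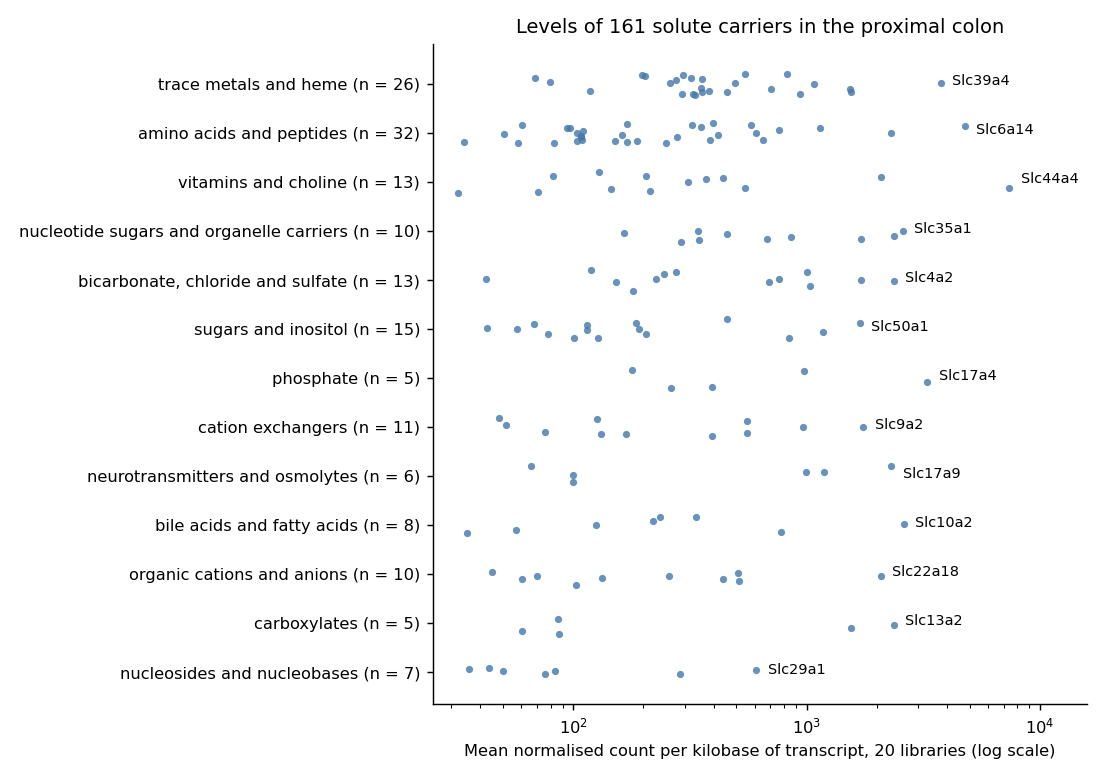
Mean normalised count per kilobase of transcript over 20 libraries (log scale) for each of 161 carriers (points), by substrate class, with classes in order of their share of the summed level and the highest carrier of each class named. Slc44a4 stood at 7397 per kilobase, and the highest nucleoside carrier, Slc29a1, at 609.

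The shares and class leads given next do not include the Slc25 family or the carriers left out by name, among them Slc26a3 and Slc9a3. By class, trace metal and heme carriers made up 16.8% of the summed level per kilobase (26 carriers) and amino acid and peptide carriers 15.8% (32 carriers). Vitamin and choline carriers came next at 12.5% from 13 carriers, of which Slc44a4 alone gave 61.5%. Nucleotide sugar and organelle carriers gave 10.2% from 10 carriers, led by Slc35a1, which brings CMP-sialic acid into the Golgi apparatus, at 2587 ± 259 per kilobase. Of the Slc35 family only the Slc35a symbols fit the rule. Bicarbonate, chloride and sulfate carriers gave 9.19%, led by Slc4a2, a chloride-bicarbonate exchanger, at 2371 ± 312 per kilobase. Slc4a2 shares 25.2% of its 50-base windows with other transcripts, mainly those of Fastk on the opposite strand, and its level could include reads from them. Each of the remaining 8 classes held between 1.23% and 5.67%. They were led per kilobase by Slc50a1 (sugars), Slc17a4 (phosphate and related anions), Slc9a2 (sodium-proton exchange), Slc17a9 (vesicular nucleotides), Slc10a2 (bile acids), Slc22a18 (organic cations), Slc13a2 (di- and tricarboxylates) and Slc29a1 (nucleosides). The plot of levels by class shows that each class held carriers over more than a 10-fold range.

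Few of these RNAs passed the thresholds for a change between diets, as was the case for the genes of the whole table. A carrier was counted as changed at a DESeq2 adjusted p of 0.05 or less over all genes and a fold change of 1.5 or more, the thresholds of the study. None of the 161 passed at 2% RPS compared with 0% RPS, where 0.0239% of all genes did, and none passed at 5% RPS, where 0.438% did. At 10% RPS 1 carrier passed, Slc2a6, which was higher (0.536% of all genes were called higher), against 0.917% of all genes called in either direction. No carrier passed between 5 and 2% RPS (0.0% of all genes), between 10 and 2% RPS (0.0557%) or between 10 and 5% RPS (0.00796%). Without regard to fold change, 4 carriers had an adjusted p of 0.05 or less at 10% RPS, namely Slc2a6, Slc31a1, Slc2a10 and Slc52a3, all higher, against 4.69% of all genes. A linear trend over the percentage of RPS was called for 3 carriers (4.29% of all genes), rising for Slc2a6 and Slc2a10 and falling for Slc38a7. The test of any difference among the 4 diets called Slc2a6 alone (2.38% of all genes). The 3 comparisons with 0% RPS share the same 5 control mice.

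Counts at an unadjusted p under 0.05 were 10 carriers at 2% RPS (8.7% of all genes), 31 at 5% RPS (16.6%) and 43 at 10% RPS (19.1%), the last with 24 higher and 19 lower. For comparisons among the starch diets the unadjusted counts were 6 at 5 against 2% RPS (2.86%), 16 at 10 against 2% RPS (9.0%) and 6 at 10 against 5% RPS (4.11%). The edgeR quasi-likelihood test called 0 carriers at 2% RPS (0.0% of all genes), 0 at 5% RPS (0.0566%), 1 at 10% RPS (0.323%), which was Slc2a6, and 0 among the starch diets. Its trend test also called Slc2a6 alone (1.33%), and its 4-diet test called 0 (0.0566%). The size of change that these libraries could have missed can be read from the 95% intervals of the fold changes. The whole interval lay within 1.5-fold in either direction for 141 of the 161 carriers at 2% RPS (87.3% of all genes), for 132 at 5% RPS (84.1%) and for 130 at 10% RPS (84.4%), and within 2-fold for 155, 154 and 152. For the carriers whose interval reached past 1.5-fold a change of that size was not bounded, and of these only Slc2a6 at 10% RPS was called. The median log2 fold change of the carriers was 0.01 at 10% RPS, and -0.0078 without 0% RPS replicate 2.

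**Figure D2:**
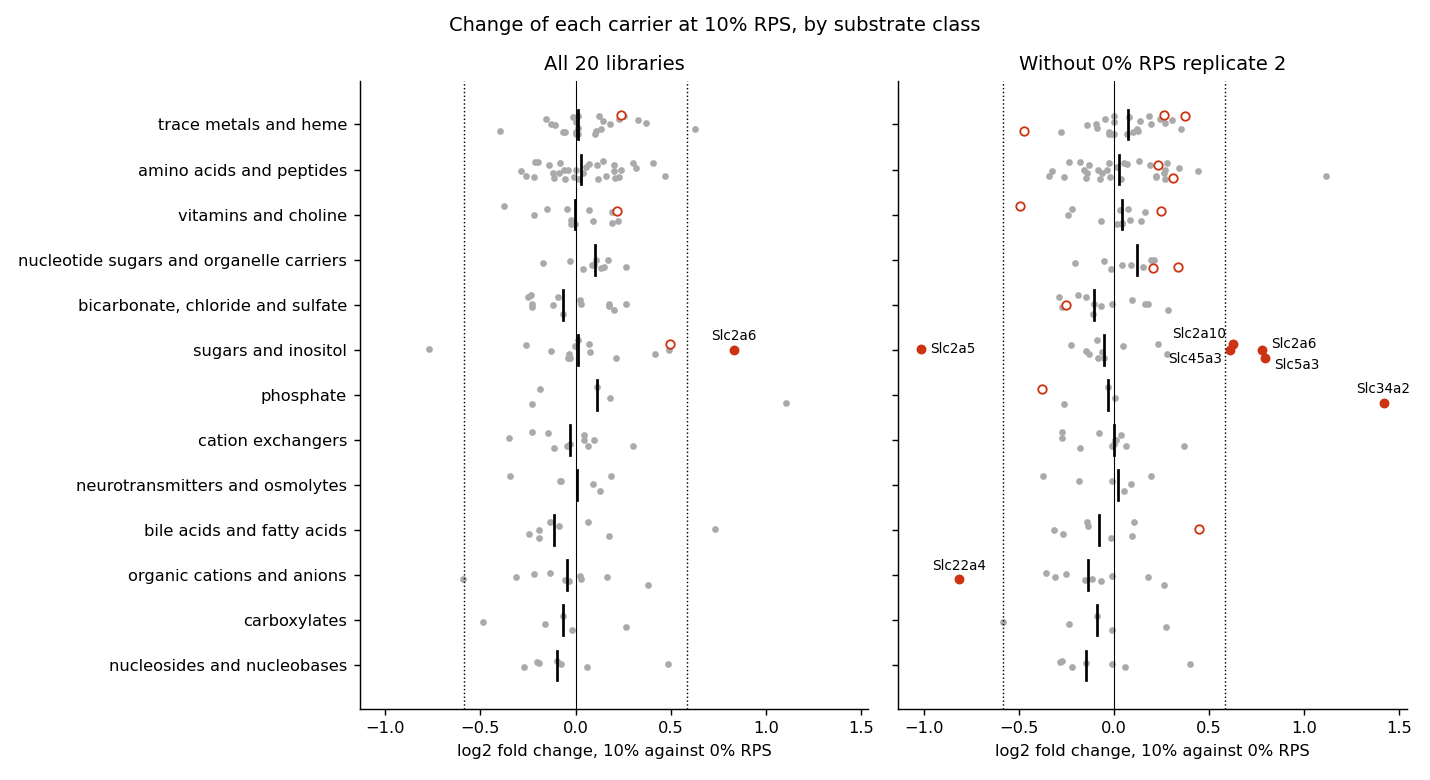
Log2 fold change at 10% against 0% RPS for each of 161 carriers by substrate class, from all 20 libraries (left) and without 0% RPS replicate 2 (right). Filled red points passed both thresholds, open red points had an adjusted p of 0.05 or less at a smaller fold, grey points passed neither, short bars are class medians and dotted lines mark 1.5-fold. Slc2a6 is the 1 filled point on the left, and 7 points are filled on the right.

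Slc2a6 encodes a hexose carrier that sits mainly in intracellular membranes. It lies on chromosome 2 from 26911226 to 26918092 on the minus strand (GRCm39), and none of its 50-base windows occurs in another transcript. Its normalised counts were 84.5, 75.0, 92.7, 101 and 93.3 on 0% RPS and 135, 111, 213, 154 and 187 on 10% RPS. Every mouse on 10% RPS was above every mouse on 0% RPS. On 2% RPS the counts were 141, 107, 140.0, 109 and 104, and on 5% RPS 119.6, 91.1, 175, 115 and 104, so both middle diets overlapped the 10% diet, and the 5% diet also overlapped the 0% diet. The mean rose from 89.3 ± 9.96 (SD, n = 5) on 0% RPS to 160 ± 40.8 on 10% RPS, a fold change of 1.78 (95% interval 1.37 to 2.32; log2 fold change 0.83, SE 0.19, DESeq2 adjusted p = 0.00218). The trend was 0.07 log2 units per percent of RPS (adjusted p = 0.00554), and the 4-diet test gave an adjusted p of 0.0229. The trend call was lost without 10% RPS replicate 3 (adjusted p = 0.0525) and without the 3 libraries numbered apart from the others in the labels (adjusted p = 0.0884). Those 3 are 2% RPS replicate 5 and 10% RPS replicates 4 and 5, so the break in the labels partly coincides with diet. On leaving out each library in turn, the log2 fold change at 10% RPS was 0.71 to 0.94 and called in all 20 fits, while the 4-diet call was lost without 0% RPS replicate 4 or 5 or 10% RPS replicate 3 or 5. Without 0% RPS replicate 2 the log2 fold change at 10% RPS was 0.78 (adjusted p = 0.00551), edgeR gave an adjusted p of 0.0363, and leaving out those 3 libraries gave 0.76 with an adjusted p of 0.0607. Slc2a6 was a low carrier, at 57.3 per kilobase.

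Slc2a6 is also known from immune cells, so the immune markers are given beside it. Of 10 immune markers 6 are in the table, none of them at 0. They summed to 5823 to 7498 normalised counts in the 0% RPS libraries other than replicate 2, and to 7448 to 10994 on 10% RPS. On 2 and 5% RPS the sums were 5781 to 8674 and 5560 to 9813. None of the 6 was called at 10% RPS with all libraries, and their median log2 fold change there was -0.07. That median includes 0% RPS replicate 2, which the 0% RPS sums above leave out, so the sums and the median do not cover the same mice. Cd3e, Itgax, Ms4a1 and Ptprc were not analysed here. In 0% RPS replicate 2 the sum of the 6 markers was 22374, and Slc2a6 was at 75.0, the lowest of all 20 libraries. The part of these cells in the rise of Slc2a6 was not tested.

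Slc2a10 (chromosome 2, 165345336 to 165361838, plus strand), another member of the facilitative hexose family, rose in the same direction with a smaller fold. Its normalised counts were 507, 734, 535, 552 and 399 on 0% RPS, and 675, 628, 660.3, 888 and 1000.3 on 10% RPS. The groups overlapped only through 0% RPS replicate 2, the second of these values, which was above 3 of the 10% RPS mice. On 2 and 5% RPS they ranged from 507 to 769.6. The fold change at 10% RPS was 1.41 (95% interval 1.14 to 1.75; adjusted p = 0.0409), under the 1.5-fold threshold, and the trend rose by 0.05 log2 units per percent (adjusted p = 0.0298). Without replicate 2 of the 0% RPS diet the fold change was 1.55 (adjusted p = 0.00213), past both thresholds, while edgeR on all libraries gave an adjusted p of 0.104 and the adjusted p was at or under 0.05 in 12 of the 20 fits that left out 1 library.

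Slc31a1 (chromosome 4, 62278085 to 62320861, plus strand), the high-affinity copper importer, and Slc52a3 (chromosome 2, 151838426 to 151852027, plus strand), the apical riboflavin carrier, rose by small amounts. Slc31a1 had 2965, 3049, 3045, 2631 and 2589 normalised counts on 0% RPS and 3185, 3242, 3529, 3417 and 3456 on 10% RPS, with all of the latter above all of the former. The fold change was 1.18 (95% interval 1.07 to 1.30; adjusted p = 0.0342). Slc52a3 had 1090.4, 1136, 1025, 1017 and 1048 on 0% RPS and 1268, 1279.5, 1264, 1085 and 1290.2 on 10% RPS. Replicate 4 of the 10% RPS diet lay among the controls and the other 4 mice above them. The fold change of Slc52a3 was 1.16 (95% interval 1.06 to 1.28; adjusted p = 0.0432). Of the 20 fits that left out 1 library, 15 kept the adjusted p of Slc31a1 at or under 0.05 and 6 that of Slc52a3, and by edgeR the values were 0.0953 and 0.104. The adjusted p was 0.0163 for Slc31a1 and 0.0204 for Slc52a3 without 0% RPS replicate 2.

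Slc38a7 (chromosome 8, 96562548 to 96580189, minus strand), a lysosomal exporter of glutamine and asparagine, fell in the trend test. Its normalised counts were 597, 632, 586, 626 and 563 on 0% RPS, 572, 555, 694, 643 and 553 on 2% RPS, 491, 524, 548, 551 and 532 on 5% RPS and 556, 546, 539, 452 and 532 on 10% RPS. The means of the 2 and 5% diets were 603 and 529, and all mice on 5 and 10% RPS were below all mice on 0% RPS. The slope was -0.02 log2 units per percent (adjusted p = 0.0497), next to the threshold, and the 10% diet alone compared with 0% RPS gave a log2 fold change of -0.20 (adjusted p = 0.114). The trend stayed at or under 0.05 in 4 of the 20 fits that left out 1 library, and without 0% RPS replicate 2 its adjusted p was 0.0668.

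**Figure D3:**
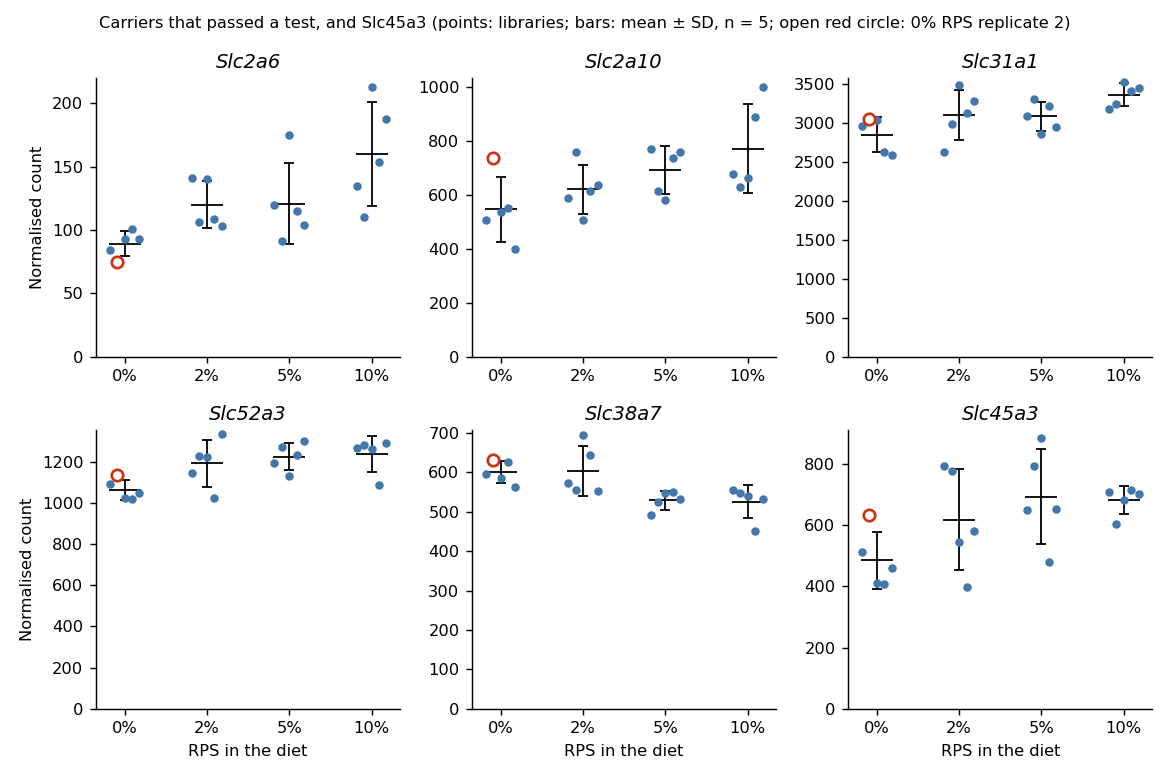
Normalised counts per library (blue points) with the mean ± SD of 5 mice for Slc2a6, Slc2a10, Slc31a1, Slc52a3, Slc38a7 and Slc45a3 on 0, 2, 5 and 10% RPS, with 0% RPS replicate 2 as an open red circle and all axes from 0. Slc2a6 rises from a mean of 89.3 to 160, and all its 10% RPS mice lie above all its 0% RPS mice.

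Sugar and inositol carriers held 2 of the 4 carriers with an adjusted p of 0.05 or less at 10% RPS with all libraries, and the other 13 of the 15 did not pass. Their median log2 fold change was 0.01 (-0.05 without 0% RPS replicate 2), within a spread from -0.77 for Slc2a5 to 0.83 for Slc2a6. Slc5a1, the sodium-coupled glucose carrier that dominates glucose uptake in the small intestine, had means of 4367 ± 1109 normalised counts on 0% RPS and 4609 ± 788 on 10% RPS (log2 fold change 0.08, adjusted p = 0.825). Its direction turned without 0% RPS replicate 2, to -0.07 (adjusted p = 0.795). Slc45a3, of a proton-coupled sugar carrier family, had means of 485 ± 93.3, 618 ± 166, 693 ± 155 and 682 ± 46 on 0, 2, 5 and 10% RPS. Its adjusted p at 10% RPS was 0.0852. Slc50a1, the highest of the class per kilobase, showed a log2 fold change of 0.07 (adjusted p = 0.792), which was 0.23 (adjusted p = 0.0737) without that library.

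With all libraries none of the 32 amino acid and peptide carriers had an adjusted p of 0.05 or less at 10% RPS, where 5 had a higher and 3 a lower value at an unadjusted p under 0.05 (19.1% of all genes in either direction). Slc38a2 and Slc7a6 were higher at an adjusted p of 0.05 or less, both under 1.5-fold, once 0% RPS replicate 2 was left out. Slc6a14 had 11887, 9388, 17482, 16380.2 and 19807 normalised counts on 0% RPS and 16832, 18775, 17635, 27252 and 19031 on 10% RPS. The highest mouse of the 10% diet stood well above the rest, and the other 4 lay within the range of the controls. On the log2 scale the difference was 0.41 (SE 0.17, adjusted p = 0.137) and the trend had an adjusted p of 0.0638. Omission of 0% RPS replicate 2 made the difference 0.28 (adjusted p = 0.239). For Slc7a8, a basolateral exchanger of neutral amino acids, the log2 fold change was -0.29 (adjusted p = 0.162), and for Slc38a2, a sodium-coupled carrier of small neutral amino acids, it was 0.20 (adjusted p = 0.0983) with all libraries and 0.23 (adjusted p = 0.045) without that library.

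Among the 26 carriers of trace metals and heme, Slc31a1 alone passed at any fold at 10% RPS with all libraries, while 7 were higher and 2 lower at an unadjusted p under 0.05 (19.1% of all genes in either direction). Without 0% RPS replicate 2, Slc31a1 and Slc39a11 were higher and Slc11a2 was lower at an adjusted p of 0.05 or less. Slc39a4 had 7934, 6391, 10265, 9279 and 11061 normalised counts on 0% RPS and 14962, 9772, 13189, 9221 and 10865 on 10% RPS. The ranges overlapped (log2 fold change 0.37, SE 0.14, adjusted p = 0.101; 0.27 and 0.185 without that library). Slc30a1, the main zinc exporter of the plasma membrane, had means of 1488 ± 404 on 0% RPS, 2019 ± 444 on 2% RPS, 2163 ± 368 on 5% RPS and 1870.2 ± 193 on 10% RPS. Its adjusted p at 5% RPS was 0.0586 with a log2 fold change of 0.54. Slc11a2, the proton-coupled importer of ferrous iron, had 1024, 1065, 1024, 2017 and 1740 normalised counts on 0% RPS. On 10% RPS the counts were 989, 1160, 954, 1154 and 966. Only replicates 4 and 5 of the 0% diet stood above the 10% RPS mice, and the other controls lay within the range of those mice. The log2 fold change of Slc11a2 was thus carried by those controls, at -0.40 (adjusted p = 0.134), and -0.47 (adjusted p = 0.045) without 0% RPS replicate 2. Slc40a1, which exports iron across the basolateral membrane, had one of -0.05 (adjusted p = 0.939) with all libraries and of -0.28 (adjusted p = 0.398) without it. The largest change of the class at 10% RPS was that of Slc30a10, a log2 fold change of 0.63 (0.35 to 0.89 on leaving out each library in turn). At 5% RPS its value was 0.77 (0.49 to 1.03). Its adjusted p was over 0.05 in both comparisons, with all libraries and in all 20 fits that left out 1.

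Of the 13 vitamin and choline carriers Slc52a3 passed at any fold and none at 1.5-fold with all libraries. Slc44a4 had means of 15259 ± 2239, 17513 ± 1263, 18668 ± 1520 and 17825 ± 1097 normalised counts on 0, 2, 5 and 10% RPS. Its log2 fold change was 0.29 at 5% RPS (adjusted p = 0.0607) and 0.22 at 10% RPS (adjusted p = 0.135). The latter was 0.14 (adjusted p = 0.216) without 0% RPS replicate 2. Slc5a6, the sodium-coupled carrier of biotin and pantothenate, pointed the other way with means of 501 ± 112, 461 ± 42.0, 422 ± 51.8 and 386 ± 53 and a log2 fold change of -0.38 at 10% RPS (adjusted p = 0.0997). Without 0% RPS replicate 2, in which it was at 330.1, that value was -0.49 (adjusted p = 0.0022).

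With all libraries none of the carriers of bicarbonate, chloride and sulfate, of cations or of carboxylates passed at 10% RPS. Of the 13 carriers of bicarbonate, chloride and sulfate, 1 was higher and 2 were lower at an unadjusted p under 0.05 (19.1% of all genes in either direction). Slc4a4, the basolateral sodium-bicarbonate cotransporter, showed a log2 fold change of 0.27 at 10% RPS (adjusted p = 0.237), and Slc4a2 one of -0.12 (adjusted p = 0.623). Leaving out 0% RPS replicate 2 made these 0.18 (adjusted p = 0.396) and -0.25 (adjusted p = 0.0123), so that Slc4a2 was lower at a fold under 1.5. Slc9a2, an apical sodium-proton exchanger and the highest of the 11 cation exchangers, had one of 0.10 (adjusted p = 0.654), and of 0.0092 (adjusted p = 0.969) without that library. Slc8a2, a sodium-calcium exchanger known from neurons, had the largest absolute value of that class, -0.35 (adjusted p = 0.22). Slc13a2, which takes up citrate and succinate, had means of 7011 ± 2611 and 4995 ± 1606 normalised counts on 0 and 10% RPS (log2 fold change -0.49, adjusted p = 0.197; -0.59 and 0.161 without that library). It shares 29.2% of its 50-base windows, mainly with its antisense gene Slc13a2os. The summed level of the 5 carboxylate carriers per kilobase was 4706 ± 1238 on 0% RPS and 3717 ± 841 on 10% RPS, and these spreads overlapped. The former was 4996 without 0% RPS replicate 2.

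The 10 nucleotide sugar and organelle carriers had a median log2 fold change of 0.10 at 10% RPS, with all 10 intervals within 1.5-fold. Slc35a2, which brings UDP-galactose into the Golgi apparatus, had the largest value, 0.26 (SE 0.09, adjusted p = 0.0631), and Slc35a1 had 0.11 (adjusted p = 0.549). Without 0% RPS replicate 2 the values were 0.34 (adjusted p = 0.00342) and 0.21 (adjusted p = 0.056), and Slc37a3 was also higher at an adjusted p of 0.05 or less. None of the 7 nucleoside and nucleobase carriers passed. Slc23a3, an orphan relative of the ascorbate carriers, showed a log2 fold change of 0.49 (adjusted p = 0.0765), and Slc29a1, an equilibrative nucleoside carrier, one of -0.19 (adjusted p = 0.207). In the 6 carriers of neurotransmitters and osmolytes, Slc17a9, which loads vesicles with ATP, had 0.19 (adjusted p = 0.185) and Slc18a3, which loads vesicles with acetylcholine, had -0.34 (adjusted p = 0.266). Slc18a3 shares 72.7% of its windows, mainly with the opposite-strand gene Litchi, and its count is uncertain. Slc22a18, the highest of the 10 organic ion carriers, had 0.16 (adjusted p = 0.248). With all libraries none of these 10, none of the 5 carriers of phosphate and none of the 8 of bile acids and fatty acids passed. Slc22a4 and Slc20a1 were lower and Slc34a2 and Slc10a2 higher at an adjusted p of 0.05 or less when 0% RPS replicate 2 was left out. Slc17a4 showed a log2 fold change of 0.18 (adjusted p = 0.651), which was 0.0047 (adjusted p = 0.991) without that library.

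Several carriers varied widely between mice, and 0% RPS replicate 2 held the extremes of many of them. Slc10a2 had 8797, 1092, 8614, 10849 and 12285 normalised counts on 0% RPS, 9295, 9912, 9865, 8598 and 10456 on 2% RPS, 11092, 14771, 10535, 10280.4 and 11436 on 5% RPS and 11392, 13104, 15154, 17311 and 12120.5 on 10% RPS. Replicate 2, the second value of the 0% diet, was 9.28-fold below the mean of the other 4, and no other library was under 8598. With all libraries the fold change at 10% RPS was 1.66 (95% interval 0.997 to 2.76, adjusted p = 0.265). Without replicate 2 it was 1.36 (log2 fold change 0.45, SE 0.13, adjusted p = 0.0176), and the trend had an adjusted p of 0.00187. The 6 small intestine markers in the table, which would mark ileal tissue, summed to 18716 normalised counts in replicate 2, inside the 13934 to 29455 of the other libraries.

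Slc30a10, a manganese exporter of the zinc efflux family, stood at 438 in replicate 2 against a mean of 3559 ± 1155 (n = 4) in the rest of its diet, 8.12-fold lower. Slc7a9, the light chain of the apical cystine and basic amino acid carrier, was 5.05-fold lower there (108 against 547 ± 193), and Slc13a1, an apical sulfate carrier, 4.58-fold lower (607 against 2781 ± 1168). Slc40a1 was 3.51-fold lower and Slc20a1, a sodium-phosphate cotransporter, 2.63-fold lower. The summed colonocyte markers were also lowest in this library. In the other direction Slc5a3, the sodium-coupled inositol carrier that cells use to hold osmolyte, stood at 2773 against 800.1 ± 137, 3.47-fold higher. Neither the lower share of colonocyte RNA nor the higher share of muscle and immune RNA was tested as a source of these values.

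**Figure D4:**
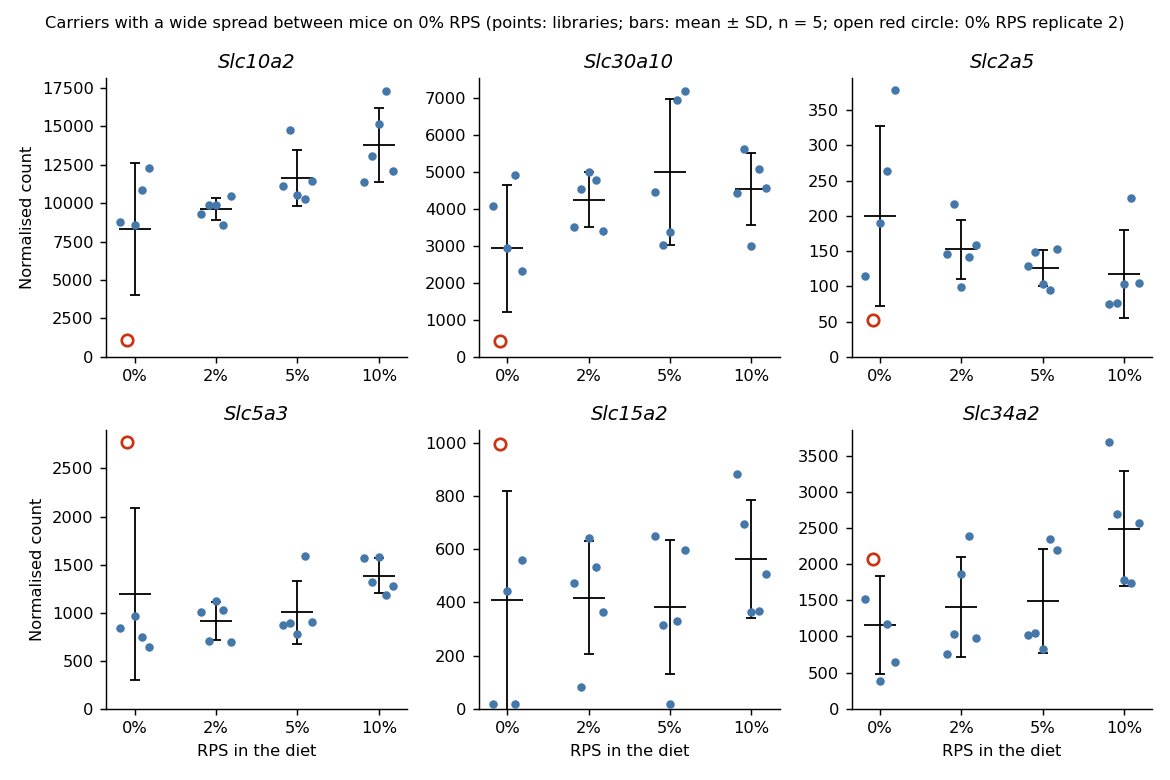
Normalised counts per library (blue points) with the mean ± SD of 5 mice for Slc10a2, Slc30a10, Slc2a5, Slc5a3, Slc15a2 and Slc34a2 on 0, 2, 5 and 10% RPS, with 0% RPS replicate 2 as an open red circle and all axes from 0. The open circle is the lowest of all libraries for Slc10a2, Slc30a10 and Slc2a5 and the highest for Slc5a3 and Slc15a2.

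Without 0% RPS replicate 2 the number of carriers called at 10% RPS was 7 (1.63% of all genes), with 5 higher (1.05%) and 2 lower (0.584%). That library was singled out partly by its extreme values for these same carriers, so the calls made without it are not independent of that choice. Besides Slc2a6 and Slc2a10, the higher ones were Slc5a3, Slc45a3 and Slc34a2, the sodium-phosphate cotransporter of apical membranes. Slc5a3 had 837, 2773, 970.0, 746 and 647 normalised counts on 0% RPS and 1571, 1321, 1574, 1181 and 1277 on 10% RPS. All 5 of the latter were above the 4 remaining controls and below replicate 2 of the 0% diet. The log2 fold change of Slc5a3 moved from 0.21 (adjusted p = 0.765) to 0.79 (adjusted p = 0.00244). At 5% RPS the log2 fold change of Slc5a3 turned from -0.25 to 0.33, neither past the threshold. Slc34a2 had 1525, 2065, 391, 1176 and 643 on 0% RPS and 3686, 2689.8, 1779.7, 1737 and 2567 on 10% RPS, which overlapped only through replicate 2. Its log2 fold change was 1.10 (SE 0.44, adjusted p = 0.124) with all libraries and 1.42 (SE 0.45, adjusted p = 0.0291) without that library. For Slc45a3 the value moved from 0.49 to 0.61 (adjusted p = 0.016).

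The 2 lower ones were Slc2a5, the fructose carrier, and Slc22a4, a carrier of ergothioneine and organic cations. Slc2a5 had 114, 52.1, 189, 264 and 378 normalised counts on 0% RPS and 75.1, 76.3, 103, 226 and 104 on 10% RPS, and the groups overlapped. Its log2 fold change was -0.77 (adjusted p = 0.242) with all libraries and -1.01 (SE 0.33, adjusted p = 0.0349) without replicate 2. Slc22a4 had 217, 73.9, 241, 261 and 331 on 0% RPS and 171, 159, 112, 204 and 98.6 on 10% RPS. All mice on 10% RPS were below the 4 remaining controls and above replicate 2 of the 0% diet. The log2 fold change of Slc22a4 was -0.59 (adjusted p = 0.208) and became -0.81 (SE 0.20, adjusted p = 0.00294). At any fold 19 carriers had an adjusted p of 0.05 or less without replicate 2, 13 higher and 6 lower, against 7.81% of all genes, the trend was called for 16 (6.43%), and the 4-diet test for 8 (4.42%). At 5% RPS 2 carriers were called, Slc45a3 higher and Slc22a4 lower (0.844%).

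Slc15a2, which takes up di- and tripeptides, was the most variable carrier, with a biological coefficient of variation (the square root of the DESeq2 dispersion) of 95.1% against a median of 12.4% for the carriers and 10.5% for all genes. It was at 16.5 and 19.1 normalised counts in replicates 1 and 4 of the 0% RPS diet, at 81.6 in replicate 2 of the 2% diet and at 19.9 in replicate 3 of the 5% diet. The other 16 libraries held 317 to 998. None of the 5 mice on 10% RPS was in the low set, and the log2 fold change at 10% RPS was 0.47 (SE 0.87, adjusted p = 0.805), and 1.1 (SE 0.90, adjusted p = 0.48) without 0% RPS replicate 2. No other carrier had a coefficient over 50%, and Slc34a2 (47.8%), Slc30a10 (46.1%) and Slc13a1 (45%) followed.

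A list of 48 carriers known for nutrient and ion transport in the intestine was also followed as a group. Of these 38 were in the table, none was called at any starch level with all libraries, and Slc52a3 alone had an adjusted p of 0.05 or less at 10% RPS. Their median log2 fold change there was 0.03. Without 0% RPS replicate 2, Slc2a5 and Slc22a4 were called lower at 10% RPS and Slc22a4 at 5% RPS, 9 of the 38 had an adjusted p of 0.05 or less at 10% RPS (7.81% of all genes), and the median was 6.5e-05. Outside the 161 carriers, 1 of 38 Slc25 carriers (Slc25a27) and 1 of 29 ABC transporters (Abcc6) were called at 10% RPS, both lower (0.381% of all genes were called lower), while none of the 4 organic anion Slco carriers and none of 20 proteins that partner with carriers was called.

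**Figure D5:**
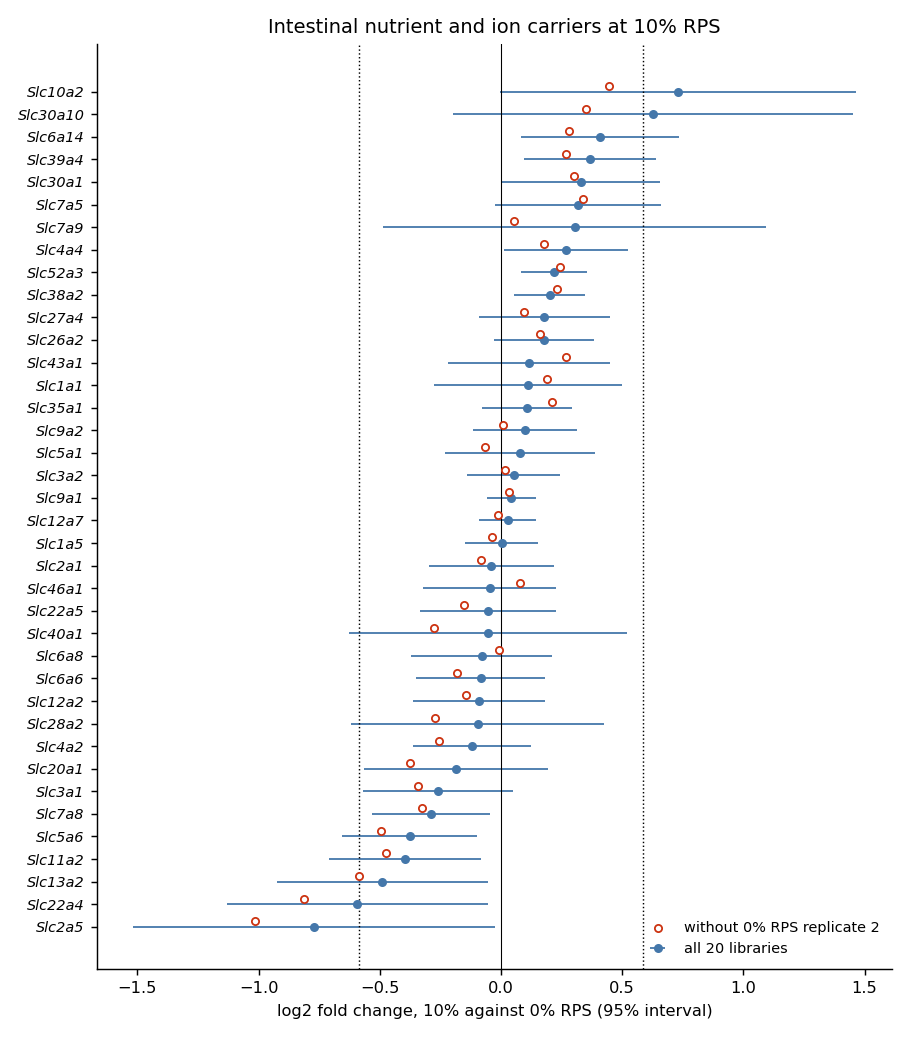
Log2 fold change at 10% against 0% RPS with its 95% interval (blue) for the 38 intestinal nutrient and ion carriers in the table, and the value without 0% RPS replicate 2 (open red circles). Dotted lines mark 1.5-fold. The widest intervals belong to carriers such as Slc30a10, Slc7a9, Slc10a2 and Slc2a5, and the interval of Slc10a2 runs from just under 0 to 1.47.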

How the data were processed

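RNA from the PC of 20 mice was made into stranded mRNA libraries and read from 1 end over 50 bases. In the deposited file are raw counts per Ensembl gene, which the authors made in CLC Genomics Workbench on GRCm39 after trimming, with no normalisation and no pooling. The annotation, the use of strand and the handling of reads with several matches are not given in the sources used here, so counts of overlapping or near-identical genes are uncertain. Of the carriers, 25 share over 25% of their 50-base windows with other transcripts and 95 overlap exons of an opposite-strand gene. Libraries held 20581013 to 35083751 counts (median 26354926), and a floor of 3 counts stood at 0.086 to 0.146 CPM, for counting error only. All table columns were used and mapped by label.

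Symbols, biotypes and coordinates came from GENCODE M39 (12682 of 12701 identifiers found). All tests were fitted to the whole table with DESeq2 (1.42.0) in R (4.3.3) on all 20 libraries. DESeq2 and the thresholds follow the study, which does not give its design formula or filters. The tests were chosen here, namely Wald tests between diets, a slope on RPS percent, and a likelihood ratio test over 4 diets, with Benjamini-Hochberg adjustment over all genes. Adjusted p values are from DESeq2 unless edgeR (4.0.16) is named. The labels do not say how mice were housed or whether libraries were prepared together, so p values measure only the spread between these mice. The script was tested on simulated counts. Levels per kilobase use the Ensembl canonical transcript.

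Members, classes and lists were chosen with earlier results of these data known. Named were carriers called in any comparison, trend or 4-diet test, the highest per kilobase and the largest change at 10% RPS in each class, and intestinal carriers on which a result turned. Slc31a1, Slc7a9, Slc13a1, Slc45a3, Slc5a3, Slc25a27, Abcc6 and the carriers called without 0% RPS replicate 2 were named after their values were seen. Alternatives were edgeR with TMM factors, TMM size factors, at least 10 counts in 5 libraries, no independent or Cook filtering, no fold threshold or one of 2, only the 2 diets, a smooth muscle score or 1 surrogate variable (sva 3.50.0) as covariate, omission of 3 libraries by label number (748, 753 and 784), and omission of each library. The length of all annotated exons was added after seeing the data.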

Additional observations from a re-analysis of the deposited data

Results flagged for a closer look

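In 15 of 124 groups of 5 mice, over 31 named carriers, 1 mouse stood so far from the nearest other that Dixon's test at 95% marked it, where chance marks about 1 group in 20. Some of these carriers were named after their values were seen, among them those that moved without 0% RPS replicate 2, so no excess over chance can be read from this count. Replicate 2 of the 0% RPS diet was marked for Slc5a3 at 2773 normalised counts (others 647 to 970.0), Slc17a4 at 3068 (others 6924 to 7575) and Slc50a1 at 2431 (others 1364 to 1649), and replicate 5 of that diet for Slc13a2 at 11485 (others 5059 to 6764). On 2% RPS replicate 3 was marked for Slc9a2 at 9707. On 5% RPS replicate 2 was marked for Slc10a2 at 14771 (others 10280.4 to 11436) and Slc6a14 at 20367, replicate 4 for Slc5a3 at 1585 and replicate 5 for Slc18a3 at 199. On 10% RPS replicate 4 was marked for 5 carriers, Slc6a14 at 27252 (others 16832 to 19031), Slc44a4 at 19741, Slc2a5 at 226 (others 75.1 to 104), Slc38a7 at 452 and Slc52a3 at 1085, and replicate 2 for Slc45a3 at 602.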

How the results depend on the processing

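The call of Slc2a6 at 10% RPS held by edgeR, under both normalisations and in each of the 20 fits that left out 1 library, and was lost at a fold threshold of 2 or without the 3 libraries outside the label run. The count of carriers at 10% RPS (1 with all libraries) was 4 with no fold threshold, 0 at a fold of 2, 2 with the smooth muscle covariate, 3 with 1 surrogate variable (Slc10a2, Slc2a6 and Slc34a2; 1.34% of all genes), 0 without the 3 libraries, and 1 to 7 on leaving out 1 library, being 7 without 0% RPS replicate 2 and 3 without 10% RPS replicate 4 (Slc13a2, Slc2a5 and Slc2a6; 1.03% of all genes). The number of classes with a carrier called was 3 with no fold threshold, 0 at a fold of 2, 3 with the surrogate variable, 0 without the 3 libraries and 1 to 3 by omission. At 2% RPS omission gave 0 to 1 (Slc30a1, without 0% RPS replicate 1, where independent filtering left 73 carriers tested), at 5% RPS 0 to 3, with 2 without 0% RPS replicate 2, 3 without 5% RPS replicate 4, and 1 (Slc30a1) without 0% RPS replicate 1. The smooth muscle covariate and the surrogate variable each gave 1 at 5% RPS (Slc45a3), and a fit of only the 2 diets gave 1 (Slc5a3) at 10 against 2% RPS. The trend (3 carriers) was called for 1 by edgeR, 5 with the smooth muscle covariate, 11 with the surrogate variable (7.12% of all genes), 1 without the 3 libraries and 1 to 16 by omission, 16 without 0% RPS replicate 2 (6.43%) or 10% RPS replicate 1 (6.53%), 8 without 0% RPS replicate 3, 7 without 10% RPS replicate 4, 6 without 2% RPS replicate 5, and 1 without 0% RPS replicate 1 or 4 or 10% RPS replicate 5. The 4-diet test (1 carrier) gave 0 by edgeR, 3 with the smooth muscle covariate, 7 with the surrogate variable (5.55%) and 0 to 8 by omission, 8 without 0% RPS replicate 2 (4.42%), 3 without 10% RPS replicate 1, 2 without 0% RPS replicate 1 or 3, 2% RPS replicate 4, 5% RPS replicate 4 or 5, or 10% RPS replicate 4, and 0 without 0% RPS replicate 4 or 5 or 10% RPS replicate 3 or 5. The log2 fold change of Slc5a3 at 5% RPS was -0.25 with all libraries and turned to 0.058 with the smooth muscle covariate, 0.17 with the surrogate variable and 0.33 without 0% RPS replicate 2 (range by omission -0.47 to 0.33). The cause was not tested. With the length of all annotated exons, 10 of 13 classes kept their highest carrier and 6 of the 10 highest carriers were shared. No paired analysis was possible because the labels give no replicate number shared between diets.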
